A study of Homo sapiens with 6 samples.

Results

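The genes described here code for the sensors that detect foreign or misplaced RNA and DNA inside the cell, and for the adaptors that pass their signal on. They were chosen by name as 10 of the 57905 genes of the deposited table, under the older symbols that the table uses. *DDX58* (RIG-I), *IFIH1* (MDA5), *DHX58* (LGP2), the endosomal receptor *TLR3* and the adaptor *MAVS* form the RNA group of 5 genes. *MB21D1* (cGAS), *AIM2*, *IFI16*, *ZBP1* and the adaptor *TMEM173* (STING) form the DNA group of 5 genes, in which ZBP1 also binds left-handed RNA. All 10 genes are in the table, and 9 of them were among the 14178 genes with enough counts to be tested. *ZBP1* was not.

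RT4 cells, an established line of genotype WT grown from a papillary bladder tumour that had not invaded muscle, were transfected by RNAiMAX with 100 pmol of a scramble siRNA (Scramble) or of 1 siRNA against *LEADR* (LEADR-KD), a spliced transcript of the *MIR205HG* gene. After 48 h poly(A) RNA was sequenced in 3 libraries per group. The question put to these libraries was which transcripts differ in *LEADR*-depleted cells. The study's methods speak of biological replicates, while the labels do not say whether the libraries of a group are separate cultures. If they are not, the p-values below measure a spread that may be technical. With 1 *LEADR* siRNA an effect of its sequence cannot be told apart from one of *LEADR* loss.

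The libraries held 15706033 to 18960822 counts in the Scramble group and 17369580 to 17841279 in the LEADR-KD group. *MIR205HG* itself was at 30.1, 17.3 and 20.7 CPM (the count relative to the library size scaled by TMM) in Scramble 1 to 3 and at 7.08, 11.6 and 5.72 CPM in LEADR-KD 1 to 3. Its log2 fold change was -1.47 with an adjusted p of 0.0018 by edgeR's quasi-likelihood test. The 15 urothelial markers summed to 7318 to 8029 CPM in Scramble and 8649 to 9227 CPM in LEADR-KD. Of the 14 tested, 3 rose and 2 fell at an adjusted p under 0.05 by the same test. Over all tested genes 12.2% rose and 12.1% fell. The log2 fold changes were 1.11 for *CDH1*, 0.76 for *UPK1B* and 0.39 for *KRT18*, and -0.51 for *ELF3* and -0.30 for *FOXA1*. Leukocytes, which express many of the sensors, were checked with 13 markers. Their sum was 4.98 to 9.07 CPM in Scramble and 5.01 to 8.44 CPM in LEADR-KD. Most of it was *ITGAM*, at 4.47 to 8.9 CPM in Scramble and 4.68 to 8.04 CPM in LEADR-KD. *CD3D*, *CD3E*, *CD68*, *ITGAX*, *LYZ* and *SPI1* were among those at 0 counts in all 6 libraries. The 9 fibroblast markers summed to 26.4 to 32.1 CPM against 18.4 to 25.7 CPM with 6 at 0. Most of that was *COL3A1*, at 24.9 to 30.8 CPM against 16.1 to 24.7 CPM. The 5 endothelial markers in the table summed to 7.28 to 10.4 CPM against 2.89 to 4.68 CPM with *KDR* and *TEK* at 0. Among them *VWF* fell (log2 fold change -1.16, edgeR adjusted p = 0.00553). The part of these markers in the results below was not tested. In bulk RNA, fewer cells that express a gene and less RNA of it per cell cannot be told apart.

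RIG-I and MDA5 are helicases that bind short triphosphorylated and long double-stranded RNA and then assemble filaments of MAVS on mitochondria. cGAS binds double-stranded DNA and makes a cyclic dinucleotide that activates STING on the endoplasmic reticulum, and both routes lead to the kinases TBK1 and IKKε and to interferon. AIM2 binds DNA too, but forms an inflammasome, while several of the sensor genes are themselves induced by interferon, which makes the pathway self-amplifying in many cell types.

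The siRNA sequence is shown because its seed can be searched in the transcripts of the sensors. Which strand acts as the guide was not stated in the sources used here, so both were searched. The listed strand and the strand complementary to it are given with bases 2 to 8 in capitals, taken as the seed of each.
listed strand: aACUGGGUgcuuuauauagga
complementary strand: uCCUAUAUaaagcacccaguu
The complement of each seed was searched in the 3′ UTR of the canonical GENCODE transcript of each of the 10 genes on GRCh37. No match of 6 or more bases was found in 9 of them. *MAVS*, whose 3′ UTR in MAVS-202 is 9971 bases long against a median of 1352 bases for the 12053 tested genes with a 3′ UTR, held 9 matches. The longest one of each strand is shown, matched bases in capitals, the first with 8 bases at chr20:3854102-3854109 and the second with 7 bases at chr20:3848414-3848420, both on the plus strand.
listed strand in MAVS: agcttgaACCCAGTAggtggag
complementary strand in MAVS: atggaggATATAGGgcgtttcc
An 8-base match of the listed strand was present in 2.43% of the 12053 3′ UTRs, and a match of 7 or 8 bases to the complementary strand in 13.4%. The other 7 matches in *MAVS* were of 6 bases to the listed strand, for which 38.1% of these 3′ UTRs held a match of 6 or more bases. The *MAVS* gene as counted by the authors ends at position 2486 of that 3′ UTR, so that 4 of the 9 matches lay inside the counted gene and the 8-base match lay beyond it. A match is a run of letters, and its part in the level of *MAVS* was not tested.

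**Figure D1:**
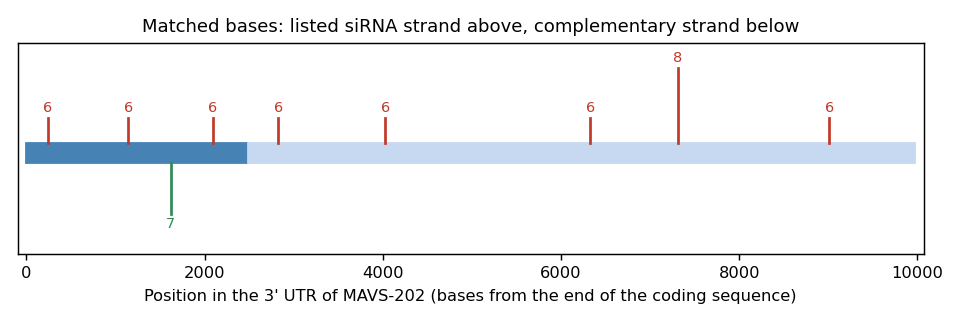
Seed matches of the *LEADR* siRNA along the 9971 bases of the *MAVS* 3′ UTR. The horizontal axis is the position in bases from the end of the coding sequence; ticks above the bar are matches of the listed strand and the tick below is that of the complementary strand, each with its number of matched bases, and the dark part of the bar, up to base 2486, is inside the gene as counted. The 8-base match sits at base 7308, beyond the counted part.

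Promoters are shown for the sensors whose start site lies near the letters of an interferon response. Promoter sequences, from 250 bases before to 50 bases after the annotated start, were taken from RefSeq (GRCh38.p14), where 6 of the 10 genes matched with 7 promoters. The others were *DHX58*, *MB21D1*, *ZBP1* and *TMEM173*. The core of the interferon-stimulated response element, GAAANNGAAA, was searched on both strands, and it occurred in 3.57% of 35116 promoters of this length. The interferon-stimulated core was in the promoters of *IFIH1*, *AIM2* and *TLR3* and not in those of *DDX58*, *MAVS* and *IFI16* (2 promoters). These 3 are printed 5′ to 3′ on the strand of the gene with its matches in capitals, *IFIH1* at chr2:162318635-162318934 (minus), *AIM2* at chr1:159076717-159077016 (minus) and *TLR3* at chr4:186068906-186069205 (plus).
IFIH1: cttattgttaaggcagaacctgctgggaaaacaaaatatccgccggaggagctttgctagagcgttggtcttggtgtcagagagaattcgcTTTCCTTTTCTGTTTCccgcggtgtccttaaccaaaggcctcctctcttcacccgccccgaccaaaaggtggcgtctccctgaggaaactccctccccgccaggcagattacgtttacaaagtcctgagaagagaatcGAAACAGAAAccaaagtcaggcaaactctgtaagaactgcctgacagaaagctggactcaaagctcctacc
AIM2: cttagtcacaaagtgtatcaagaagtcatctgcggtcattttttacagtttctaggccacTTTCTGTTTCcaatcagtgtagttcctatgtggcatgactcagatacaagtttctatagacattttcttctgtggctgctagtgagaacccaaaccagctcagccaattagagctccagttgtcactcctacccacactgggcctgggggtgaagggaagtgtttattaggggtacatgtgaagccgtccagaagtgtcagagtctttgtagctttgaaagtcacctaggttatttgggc
TLR3: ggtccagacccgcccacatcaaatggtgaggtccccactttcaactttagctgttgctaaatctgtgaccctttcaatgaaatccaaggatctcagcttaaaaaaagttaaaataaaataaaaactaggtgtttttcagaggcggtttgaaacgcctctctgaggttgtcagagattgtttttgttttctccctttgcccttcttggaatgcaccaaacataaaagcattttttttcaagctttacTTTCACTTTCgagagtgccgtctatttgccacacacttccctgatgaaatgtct
In *IFIH1* there were 3 matches of the interferon-stimulated core, of which those beginning 159 and 153 bases before the start overlap each other and the third begins 21 bases before it. *AIM2* held 1 match, 190 bases before the start. *TLR3* held 1 match, which begins 4 bases before the start. A match describes these letters only, and a window without one says nothing about the factor.

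Among the 9 tested genes 4 rose in *LEADR*-depleted cells, *AIM2*, *DDX58*, *IFIH1* and *MB21D1*, and 5 did not pass the test (edgeR's quasi-likelihood test, Benjamini-Hochberg adjusted p under 0.05 over all tested genes). The background was that 12.2% of all 14178 genes rose and 12.1% fell. By this test 0 of the 9 genes fell, and the count was also 0 at an unadjusted p under 0.05, with DESeq2 and with limma. With the replicate block, an alternative described in the last section, the count was 1, *MAVS* (edgeR adjusted p = 0.0215). The same 4 genes had all LEADR-KD libraries above all Scramble libraries, which held for 19.9% of all tested genes, as did the opposite order for 19.9%. The median log2 fold change was 0.47 over the 9 genes and -0.01 over all tested genes. In the RNA group 2 of 5 genes rose (median log2 fold change 0.30), and in the DNA group 2 of 4 (median 0.48). With DESeq2 5 of the 9 genes rose, and across all alternatives the number was 3 to 5.

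**Figure D2:**
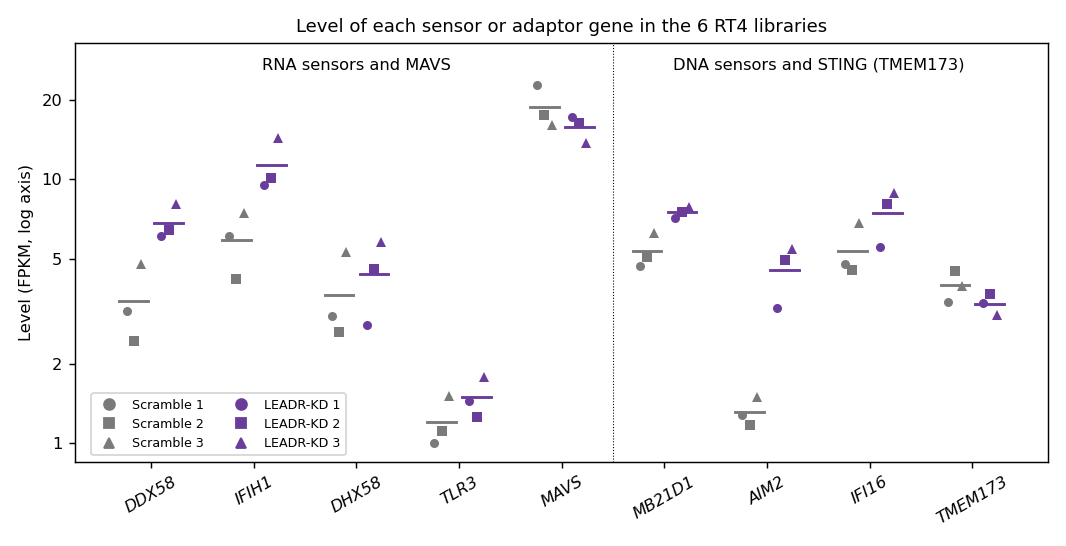
Level of the 9 tested sensor and adaptor genes in FPKM on a log axis, with 1 point per library (grey Scramble, purple LEADR-KD, the shape giving the library number) and a bar at the mean of 3 libraries. The LEADR-KD points of *DDX58*, *IFIH1*, *MB21D1* and *AIM2* lie above all their Scramble points, and *MAVS* is the highest gene in both groups.

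RIG-I, the product of *DDX58* (ENSG00000107201, hg19 chr9:32455300-32526322, minus strand, in the build used for all gene positions below), recognises short RNA with a 5′ triphosphate. The gene was at 16.7, 12.8 and 25.1 CPM in Scramble 1 to 3 and at 31.9, 33.8 and 42.1 CPM in LEADR-KD 1 to 3. The lowest LEADR-KD library was 1.27 times the highest Scramble library, Scramble 3. The mean rose from 18.2 ± 6.29 to 35.9 ± 5.40 CPM (SD, n = 3 per group), a log2 fold change of 0.98 (SE 0.21, 95% interval 0.53 to 1.44, edgeR adjusted p = 0.00534). *DDX58* shares 4471 exon bases on the same strand with ENSG00000288684 in the newer annotation, a gene that is not in the count table.

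MDA5, from *IFIH1* (ENSG00000115267, chr2:163123589-163175213, minus strand), binds long double-stranded RNA. Its gene was at 28.0, 19.0 and 34.0 CPM in Scramble 1 to 3 and at 43.0, 46.0 and 65.2 CPM in LEADR-KD 1 to 3. Here too the groups did not overlap, with a gap of 1.26-fold between the nearest libraries. The mean rose from 27.0 ± 7.54 to 51.4 ± 12.1 CPM, a log2 fold change of 0.93 (SE 0.20, 95% interval 0.49 to 1.38, edgeR adjusted p = 0.00634). *DDX58* and *IFIH1* kept their call under all 16 alternatives tried, with log2 fold changes of 0.78 to 1.29 and 0.73 to 1.13.

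The third helicase of the family, LGP2, lacks the signalling domains of the other two and tunes them. *DHX58* (ENSG00000108771, chr17:40253422-40264751, minus strand) was at 11.7, 10.2 and 20.6 CPM in Scramble and at 10.8, 17.7 and 22.4 CPM in LEADR-KD. The groups overlapped almost completely, with LEADR-KD 1 below Scramble 1. The log2 fold change of *DHX58* was 0.26 (SE 0.28, 95% interval -0.35 to 0.88, edgeR adjusted p = 0.549). The interval includes 0. The value ranged from 0.01 without LEADR-KD 3 to 0.63 without Scramble 3.

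TLR3 reads double-stranded RNA in endosomes and signals through TRIF rather than MAVS. *TLR3* (ENSG00000164342, chr4:186990306-187009223, plus strand) was at 6.77, 7.49 and 10.2 CPM in Scramble and at 9.65, 8.47 and 12.0 CPM in LEADR-KD. LEADR-KD 1 and 2 lay below Scramble 3, and the log2 fold change was 0.30 (SE 0.20, 95% interval -0.13 to 0.74, edgeR adjusted p = 0.309).

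*MAVS* (ENSG00000088888, chr20:3827487-3849280, plus strand), the adaptor shared by RIG-I and MDA5, was at 97.7, 74.7 and 68.7 CPM in Scramble and at 73.2, 70.0 and 58.3 CPM in LEADR-KD. Its levels overlapped between the groups. The log2 fold change was -0.26 (SE 0.13, 95% interval -0.55 to 0.03) and did not pass (edgeR adjusted p = 0.19). It was nearer 0 without Scramble 1, the highest library, at -0.09, and ranged from there to -0.36 with 1 library left out. Among the 16 alternatives it passed in 1, the replicate block of the last section (edgeR adjusted p = 0.0215).

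Of the DNA sensors, cGAS is the enzyme that makes the cyclic dinucleotide for STING. *MB21D1* (ENSG00000164430, chr6:74123238-74161999, minus strand) was at 19.7, 21.2 and 26.3 CPM in Scramble and at 29.5, 31.5 and 32.7 CPM in LEADR-KD. The groups were separated by a gap of 1.12-fold. The mean rose from 22.4 ± 3.43 to 31.2 ± 1.63 CPM, a log2 fold change of 0.48 (SE 0.13, 95% interval 0.20 to 0.76, edgeR adjusted p = 0.0178). This call was the least stable of the 4. It was lost with library totals in place of TMM (edgeR adjusted p = 0.0822) and on leaving out Scramble 1 (0.0595), Scramble 2 (0.0656), LEADR-KD 2 (0.059) or LEADR-KD 3 (0.0598). *MB21D1* shares 180 exon bases with *DDX43* on the other strand, which had 18 counts in all 6 libraries together.

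AIM2 assembles an inflammasome on cytosolic DNA, and its gene changed most. *AIM2* (ENSG00000163568, chr1:159032274-159116886, minus strand) had 44, 46 and 51 counts in Scramble 1 to 3 and 104, 181 and 194 counts in LEADR-KD 1 to 3. In CPM these were 2.59, 2.36 and 3.04 against 6.51, 9.96 and 11.0. The lowest LEADR-KD library was 2.14 times the highest Scramble library. The mean rose from 2.67 ± 0.348 to 9.15 ± 2.34 CPM, which was 3.44-fold (95% interval 2.40 to 4.94) or 1.78 on the log2 scale (SE 0.24, edgeR adjusted p = 0.00031). The call held under all 16 alternatives, where the log2 fold change was 1.24 to 1.98, the lowest value coming from the log2(FPKM + 1) scale, which understates changes of low genes. *AIM2* shares 500 exon bases with the pseudogene *RAD1P2*, which had 0 counts.

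IFI16 is a nuclear and cytosolic DNA sensor of the same PYHIN family, coded next to *AIM2* on chromosome 1. *IFI16* (ENSG00000163565, chr1:158969758-159024945, plus strand) was at 25.6, 24.1 and 36.5 CPM in Scramble and at 29.3, 42.9 and 47.1 CPM in LEADR-KD. LEADR-KD 1 lay below Scramble 3, so the groups overlapped. The log2 fold change was 0.47 (SE 0.19, 95% interval 0.06 to 0.89, edgeR adjusted p = 0.0947), about the size of that of *MB21D1* with a wider error. *IFI16* passed without Scramble 3 (edgeR adjusted p = 0.0193), without LEADR-KD 1 (0.0141), with DESeq2 (0.0423) and with no filter on low genes (0.00198). It shares 425 exon bases with *PYDC5* on the other strand, a gene that is not in the count table.

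STING, the adaptor behind cGAS, is coded by *TMEM173* (ENSG00000184584, chr5:138855119-138862520, minus strand). It was at 13.3, 17.5 and 15.4 CPM in Scramble and at 13.0, 14.3 and 11.8 CPM in LEADR-KD. The groups overlapped, and the log2 fold change was -0.24 (SE 0.15, 95% interval -0.56 to 0.08, edgeR adjusted p = 0.268). Both adaptors of the set, *MAVS* and *TMEM173*, had negative log2 fold changes that did not pass. The 7 tested sensors had positive ones, of which 4 passed. Over all 14178 tested genes 6889 had a positive value, and 12.2% rose. Whether adaptors and sensors differ was not tested.

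ZBP1, which binds left-handed nucleic acids and can start necroptosis, was close to undetected. *ZBP1* (ENSG00000124256, chr20:56178902-56195632, minus strand) had 0 counts in all Scramble libraries and 1, 0 and 2 counts in LEADR-KD 1 to 3. A level of up to 0.154 to 0.188 CPM, the worth of 3 counts in a library, could not be told from 0 at this depth, and that limit covers counting error only. No fold is given since both groups were at or under it.

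**Figure D3:**
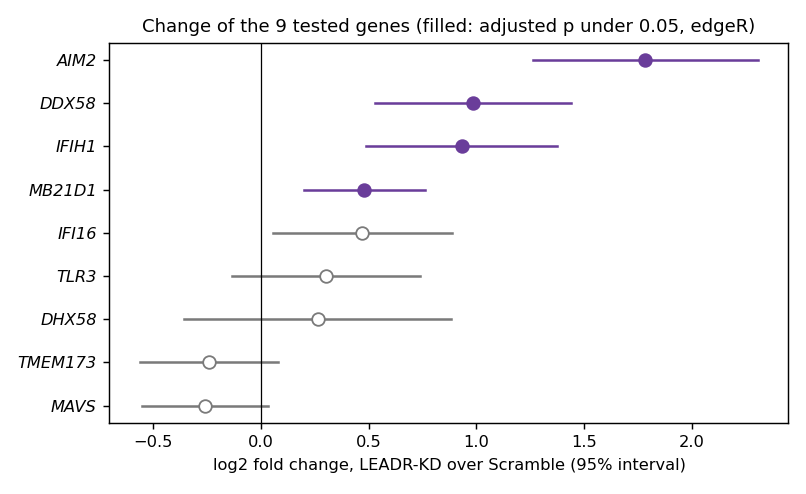
Log2 fold change of each tested gene, LEADR-KD over Scramble, with its 95% interval (horizontal bars) from edgeR, 3 libraries per group; filled points passed an adjusted p of 0.05. *AIM2* stands at 1.78, *DDX58* and *IFIH1* at 0.98 and 0.93, and the intervals of *TLR3*, *DHX58*, *TMEM173* and *MAVS* include 0.

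Levels of different genes were compared per length, in FPKM (fragments per kilobase of gene, scaled by library). In Scramble cells *MAVS* was the highest at 18.8 ± 3.58 FPKM (n = 3), above 81.7% of the tested genes, and its lowest library was above every library of the other sensors. *IFIH1* (5.91 ± 1.64), *IFI16* (5.37 ± 1.25) and *MB21D1* (5.34 ± 0.810) followed and overlapped each other in FPKM. *TMEM173* (3.96 ± 0.536), *DHX58* (3.65 ± 1.44) and *DDX58* (3.45 ± 1.19) had lower means and overlapped each other. The highest libraries of *DHX58* (5.30 FPKM) and *DDX58* (4.76 FPKM) were above the lowest ones of *IFIH1*, *IFI16* and *MB21D1*. *AIM2* (1.31 ± 0.169) and *TLR3* (1.20 ± 0.265) were the lowest detected genes and overlapped each other.

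In LEADR-KD cells the FPKM of *MAVS* (15.8 ± 1.85) and of *IFIH1* (11.3 ± 2.65) overlapped, since LEADR-KD 3 had 13.7 FPKM of *MAVS* and 14.4 FPKM of *IFIH1*. *MB21D1* (7.50 ± 0.375), *IFI16* (7.48 ± 1.74) and *DDX58* (6.86 ± 1.03) came next. *AIM2* moved from rank 8 to rank 6 of the 10 genes at 4.54 ± 1.15 FPKM and overlapped *DHX58* (4.39 ± 1.51). *TMEM173* (3.38 ± 0.306) had a lower mean but overlapped both of them, and in LEADR-KD 1 it was the highest of the 3. *TLR3* (1.49 ± 0.268) was the lowest of the tested genes, in all libraries of the group.

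Ratios within a library show how unequal the changes were, since each is free of the library's scale. Of 7 pairs compared, *IFIH1* over *DDX58* was the steadiest, at FPKM ratios of 1.56 to 1.94 in Scramble and 1.55 to 1.79 in LEADR-KD, and the groups overlapped. For the other 6 pairs the groups did not overlap. The pairs were chosen with the changes of the genes known, so these ratios are a description and carry no test. *DHX58* over *DDX58* went from 0.956 to 1.11 in Scramble down to 0.459 to 0.723 in LEADR-KD. *MAVS* over *DDX58*, adaptor over sensor, went from 3.37 to 7.22 down to 1.71 to 2.82. *TLR3* over *DDX58* was 0.316 to 0.454 against 0.195 to 0.235.

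On the DNA side *AIM2* over *IFI16* had FPKM ratios of 0.267, 0.258 and 0.220 in Scramble 1 to 3 and of 0.587, 0.612 and 0.615 in LEADR-KD 1 to 3. Within each group the ratio of these neighbouring genes varied little, although each of the genes alone varied more between the LEADR-KD libraries. *AIM2* over *MB21D1* was 0.230 to 0.272 against 0.457 to 0.694. *MB21D1* over *TMEM173*, enzyme over adaptor, was 1.13 to 1.58 against 2.05 to 2.56.

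**Figure D4:**
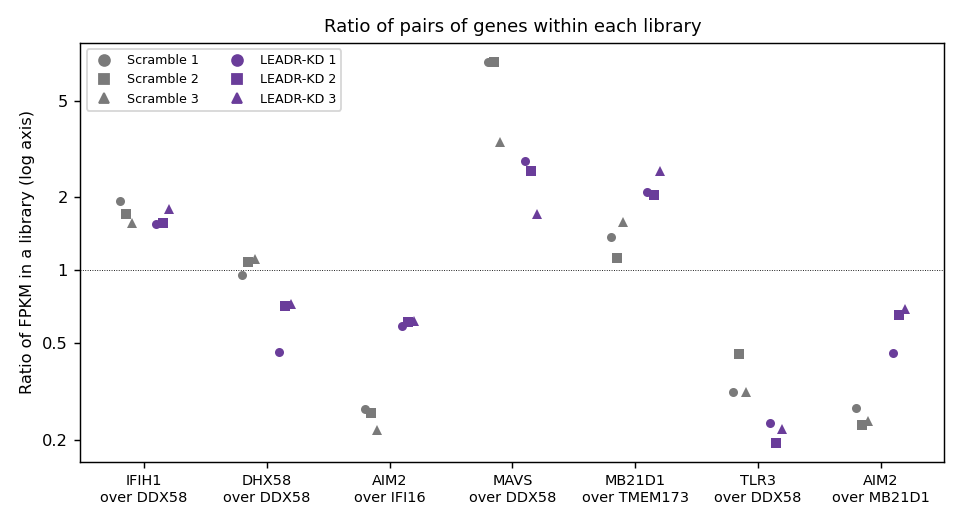
Ratio of the FPKM of 2 genes within each library, on a log axis, for the 7 pairs compared, with 1 point per library (grey Scramble, purple LEADR-KD). The groups overlap for *IFIH1* over *DDX58* and are apart for the other 6 pairs, with *AIM2* over *IFI16* at 0.220 to 0.267 against 0.587 to 0.615.

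The spread within the groups was shared by most of these genes. Library 3 was the highest of its group in both groups for 7 of the 9 tested genes, all but *MAVS* and *TMEM173*, against 16.3% of all tested genes. *MAVS* showed the reverse order, highest in library 1 and lowest in library 3 of both groups. The largest departures from a group's mean on the log2 CPM scale were those of *DHX58*, 0.59 in Scramble 3 and -0.57 in LEADR-KD 1. In LEADR-KD 1 *AIM2* (-0.43) and *IFI16* (-0.41) were low as well. The median ratio of the highest to the lowest Scramble library was 1.51 over the 9 genes and 1.23 over all tested genes. The mitochondrial share of counts was 11.9% and 10.8% in the libraries numbered 1, and 3.06% to 5.73% in the others. Without both libraries numbered 1, an alternative chosen after seeing the data, 5 of the 9 genes rose, *IFI16* (edgeR adjusted p = 0.0301) being the added one.

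**Figure D5:**
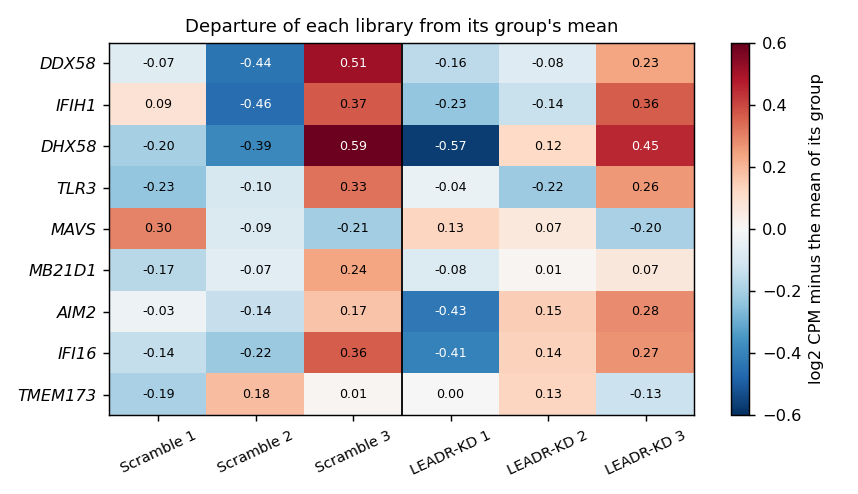
Departure of each library from the mean of its group in log2 CPM, for the 9 tested genes (rows) and 6 libraries (columns); red is above and blue is below the group's mean. Scramble 3 and LEADR-KD 3 are both above the mean for 7 genes. *MAVS* is below it in both, and *TMEM173* is at 0.01 in Scramble 3 and -0.13 in LEADR-KD 3.

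Across the 6 libraries, the pair of sensors with the most similar pattern was *DDX58* and *IFIH1*, whose centred log2 CPM differed by a root mean square of 0.115. *TLR3* and *MB21D1* (0.163) and *DHX58* and *IFI16* (0.184) came next, and *MAVS* and *AIM2* (0.985) were the least alike. Outside the set, 13050 genes were ranked by the same measure over the 6 libraries. Closest to *DDX58* were *PTX3* (0.054), *SAMHD1* (0.095) and *BIRC3* (0.111), and closest to *IFIH1* were *SAMHD1* (0.072), *UBE2L6* (0.085) and *LAMP3* (0.122). For *MB21D1* they were *WNT7A* (0.034), *ZNF432* (0.045) and *ZNF567* (0.048), and for *AIM2*, with a larger distance, *SEMA3A* (0.161), *HAS2* (0.163) and *EREG* (0.181). Of these neighbours *WNT7A* did not pass the test (log2 fold change 0.47, edgeR adjusted p = 0.127), while the others rose. These distances describe 6 libraries in 2 groups and carry no test.

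The partners of the RNA sensors were described with a list of 35 genes, all tested, of which 10 rose and 2 fell with a median log2 fold change of 0.23, beside 12.2% that rose and 12.1% that fell over all tested genes. *IFIT1*, which binds RNA with foreign 5′ ends, rose the most of them at 9.48, 3.54 and 23.6 CPM in Scramble and 42.3, 54.6 and 81.0 CPM in LEADR-KD. Its log2 fold change was 2.29 (SE 0.47, edgeR adjusted p = 0.00442), and 3.21 without Scramble 3, its highest Scramble library. *DDX60*, a helicase that aids RIG-I, rose by 0.87, *CYLD*, which removes ubiquitin chains from RIG-I, by 0.74 and *CHUK*, the kinase IKKα, by 0.68 on the log2 scale. *TRADD* (-0.39), a death-domain adaptor that joins MAVS, and *TANK* (-0.32), a scaffold of TBK1, fell. The list's count of genes that rose was 5 without Scramble 2, 5 without LEADR-KD 2, 6 without LEADR-KD 3 and 4 with library totals. *TRADD* and *TANK* lost their call under 9 and 10 of the 16 alternatives, and *DDX60* under 3 of them, DESeq2 included.

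Of the 34 partners of the DNA sensors 31 were tested, 3 rose and 2 fell, with a median log2 fold change of 0.10. Both counts were below the shares over all tested genes (12.2% and 12.1%), so that the genes named here are single genes and not a result about the list. *POLR3A* (0.35), the largest subunit of RNA polymerase III, and *DDX41* (0.27), a helicase described as a DNA sensor, rose on the log2 scale. So did *IKBKE* (0.33), the kinase IKKε, which is also counted among the partners of the RNA sensors. All of these 3 calls were lost in 6 to 9 of the 16 alternatives, and without Scramble 2, Scramble 3 or LEADR-KD 2 the count was 0, and without LEADR-KD 1 it was 1. *RNF26*, a ubiquitin ligase of the endoplasmic reticulum that acts on STING, was at 80.4, 80.2 and 82.7 CPM in Scramble and at 50.2, 46.1 and 49.6 CPM in LEADR-KD. It fell by 0.74 on the log2 scale (SE 0.08, edgeR adjusted p = 9.38e-05) with groups far apart. *G3BP1*, a stress granule protein that aids cGAS, fell by 0.41.

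Enzymes that keep the cell's own nucleic acids below the sensors' reach made up a list of 20 genes, 19 of them tested, of which 2 rose and 2 fell (median log2 fold change 0.04), shares close to the 12.2% and 12.1% of all tested genes. *SAMHD1*, which degrades deoxynucleotides, rose at 48.6, 36.5 and 61.0 CPM in Scramble and 82.0, 82.3 and 107.7 CPM in LEADR-KD. Its log2 fold change was 0.90 (SE 0.17, edgeR adjusted p = 0.00254). The SKI complex feeds RNA to the exosome, and its genes in this list changed in opposite directions. *TTC37* rose by 0.41 and *SKIV2L* fell by 0.47 on the log2 scale, and both calls held under all 16 alternatives. *APEX1*, an endonuclease of base excision repair, fell by 0.50.

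A list of 21 inflammasome and necroptosis genes, not all of them partners of AIM2 or ZBP1, had 16 tested. Of these 2 rose and 1 fell, with a median log2 fold change of 0.18. These counts were close to or under the 12.2% that rose and the 12.1% that fell over all tested genes. *NEK7*, a kinase that the NLRP3 inflammasome needs, was at 27.0, 34.3 and 29.3 CPM in Scramble and at 53.1, 56.4 and 53.5 CPM in LEADR-KD, without overlap. It rose by 0.85 on the log2 scale (SE 0.11, edgeR adjusted p = 0.000227). *NLRP3* itself had 2 counts in Scramble 3 and 0 in the other libraries. *PYCARD* (log2 fold change -0.52, edgeR adjusted p = 0.119) and *CASP1* (0.17, edgeR adjusted p = 0.58) did not pass. *RIPK3* had 0 counts in all 6 libraries. *RIPK1*, a kinase at the branch to necroptosis that is also among the partners of the RNA sensors, rose by 0.33, and *DFNA5* (gasdermin E), a pore-forming protein, fell by 0.40. The call of *RIPK1* was lost under 5 of the 16 alternatives, among them leaving out Scramble 2, Scramble 3 or LEADR-KD 2. That of *DFNA5* was lost under 9 of them, among them leaving out any library except Scramble 1.

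Of 22 other RNA- and DNA-binding sensors 18 were tested, of which 4 rose and 1 fell (median log2 fold change 0.18), beside 12.2% and 12.1% of all tested genes. *OASL*, an inactive relative of the oligoadenylate synthetases that aids RIG-I, was at 11.6, 10.2 and 13.2 CPM in Scramble and at 43.3, 44.2 and 44.5 CPM in LEADR-KD. It rose by 1.92 on the log2 scale (SE 0.12, edgeR adjusted p = 1.97e-06). *IFIT5* (1.17), *EIF2AK2* (0.48), the kinase PKR that halts translation on double-stranded RNA, and *DHX15* (0.25) rose as well, *DHX15* with its call lost under 9 of the 16 alternatives. *DDX6*, a helicase of RNA decapping, was at 240.2, 194.1 and 152.9 CPM in Scramble and at 117.5, 70.3 and 65.2 CPM in LEADR-KD, and fell by 1.22 on the log2 scale (SE 0.21, edgeR adjusted p = 0.00156).

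The interferon genes themselves, whose products many sensor routes end in, were next to undetected in poly(A) RNA at 48 h. Of 21 type I and type III genes 3 had any count, with 5 counts in all 6 libraries together, and none was tested. *IFNB1* had 1 count in LEADR-KD 2, *IFNK* had 1 in Scramble 1, and *IFNL1* had 1 each in Scramble 3, LEADR-KD 1 and LEADR-KD 3. At this depth a level under 0.154 to 0.188 CPM could not be told from 0, and an earlier or short-lived rise was not measured.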

How the data were processed

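All 6 libraries were grouped and numbered by their labels. The authors deposited raw counts per gene (by hg19, HISAT2 2.0.5 and featureCounts 1.5.0-p3 in the submitters' processing notes, and by Salmon in the paper's methods), FPKM values, which the authors made from those counts and the gene lengths, and the log2 fold changes and p-values of their own comparison by DESeq2 1.20.0, not used here. Whether reads were counted by strand was not given in the sources used here. Reads of a gene and its antisense neighbour may therefore be mixed.

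Counts were scaled by TMM, filtered by filterByExpr (minimum count 10) and tested without covariates by edgeR 4.0.16 (quasi-likelihood) in R 4.3.3, with Benjamini-Hochberg adjustment over 14178 genes. A gene rose or fell at an adjusted p under 0.05. The biological coefficient of variation was 12.6%. The standard error is the log2 fold change divided by the root of F. Limma 3.58.1 on log2(FPKM + 1) and log2(FPKM + 0.1) and DESeq2 1.42.0 were alternatives. The steps were tested on simulated counts.

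The 10 genes, the lists and the ratios were chosen with earlier results of these data known. Named besides the 10 genes were *MIR205HG*, interferon genes with any count, up to 4 called genes per list and direction with the largest change, and the 3 genes nearest to each called sensor (mean of at least 1 CPM, on centred log2 CPM). Some cell type markers were named too, as were *PYCARD*, *CASP1*, *RIPK3* and *NLRP3*, which did not pass or were not tested.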

Additional observations from a re-analysis of the deposited data

How the results depend on the processing

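Counts of called genes and the fold changes of *MIR205HG*, the 9 tested sensors and adaptors and the named list genes were recomputed under 16 alternatives: DESeq2, its size factors in edgeR, library totals, mitochondrial genes left out, no filter or a stricter one (mean of 1 CPM), limma on FPKM with 1 or 0.1 added, the replicate block, each library left out in turn and, chosen after seeing the data, both libraries numbered 1 left out. The FPKM order and ratios, the likeness distances and the share of genes highest in library 3 were not recomputed. No recomputed fold change changed sign. Genes that rose among the 9 sensors and adaptors numbered 4, and 3 to 5 with 1 library left out. With the replicate block 1 sensor gene fell, *MAVS* (edgeR adjusted p = 0.0215), 5 rose with *IFI16* added, and the partners of the DNA sensors that rose numbered 8. The block also gave 5 higher and 5 lower among the enzymes that limit self nucleic acids, 2 lower in the inflammasome list and 7 higher among the other sensors. Same-numbered libraries correlated at 0.28, -0.006 and 0.34 in their departures from the group means. Those numbered 1 correlated best with each other, as did those numbered 3, while those numbered 2 did not. The numbers were therefore not taken as pairs, and a shared origin of same-numbered libraries was not tested.

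Of all genes, 1736 rose and 1719 fell. Library totals left 1085 that rose, and with 1 library left out 1188 to 1457 rose and 1142 to 1472 fell. Among the partners of the RNA sensors 10 rose, against 4 with library totals, 3 with 0.1 added to FPKM and 5 to 9 with 1 library left out. Of these partners 2 fell, against 0 with library totals, no filter, 0.1 added to FPKM or both libraries numbered 1 left out, 1 with 1 added to FPKM, and 0 to 1 with 1 library left out. Of the partners of the DNA sensors 3 rose, against 0 with library totals or 0.1 added to FPKM, 1 with 1 added, and 0 to 4 with 1 library left out. In the inflammasome list 2 rose, against 1 with library totals or 0.1 added to FPKM and 1 to 3 with 1 library left out, and 1 fell, against 0 with library totals, no filter or either added constant and 0 to 1 with 1 library left out. Of the other sensors 4 rose, against 2 with 0.1 added to FPKM. The causes were not tested. The libraries' depth limits *AIM2*, with 44 to 51 Scramble counts, and leaves *ZBP1* and the interferon genes unmeasured.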
